A study of Homo sapiens with 9 samples.

Results

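RNA levels after the platinum complex Pt-ttpy were set directly against those after cisplatin in A2780 cells, an established line from a human ovarian carcinoma. The comparison takes the 3 Pt-ttpy libraries (5.5 µM, 96 h) and the 3 cisplatin libraries (0.6 µM, 96 h), 6 of the 9 libraries of the series, over all genes that carry an Ensembl identifier. Of 19974 such genes, 13383 passed the filter on low counts, and 2175 further loci named newGene were tested with them, which made 15558 rows. The other 3 libraries came from cells kept for 96 h in 0.5% DMSO and give the untreated level. All cells are labelled as the same wild-type line. Each drug was given at its own IC80 per the labels, so the doses differ in µM and are matched on toxicity only, and dose and compound cannot be told apart. The treatment is written "Cispt" in the labels and was read as cisplatin. Libraries are named by drug and replicate number. The labels call the replicates biological without saying that they were grown apart, so the p-values may cover no more than technical spread.

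Cisplatin binds neighbouring guanines and crosslinks DNA. Such damage stabilises the transcription factor p53, which switches on genes for cell cycle arrest, repair and cell death, and A2780 is known as a line that keeps p53 function. Pt-ttpy is named in the series title as a complex that binds G-quadruplexes, stacked folds of guanine-rich DNA, in the nuclear and the mitochondrial genome. HIF-1, a factor that accumulates at low oxygen, switches on glucose uptake, glycolysis and the kinases that hold pyruvate back from mitochondria. The design text asks which genes respond to Pt-ttpy, and the comparison with cisplatin asks where the platinum drugs at like toxicity differ.

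Few genes separated the drugs. Those lower with Pt-ttpy included 23 members of p53 target lists, led by CDKN1A and GDF15, and those higher included SLC2A1, HK2, ALDOC and LDHA of glucose uptake and glycolysis and the HIF target PDK1. At an adjusted p under 0.05 (edgeR's quasi-likelihood F test, Benjamini-Hochberg adjustment over all 15558 rows), 71 rows were lower with Pt-ttpy than with cisplatin (0.456% of rows tested) and 9 were higher (0.0578%). Of these 80 rows (0.514%), 78 were genes with an Ensembl identifier, 69 of them lower and 9 higher. At least 2-fold differences were called in 43 rows (0.276%), 41 lower and 2 higher. The 3 values of each drug did not overlap in any of the 78 genes, against 20.6% of all rows whose groups did not overlap. The genes were called on these same values, so their separation adds no support of its own. At an unadjusted p under 0.05 there were 800 lower and 454 higher rows. The median difference over all rows was log2 0.00, and the median size of a difference was log2 0.15. Throughout, a negative log2 difference means lower with Pt-ttpy.

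**Figure D1:**
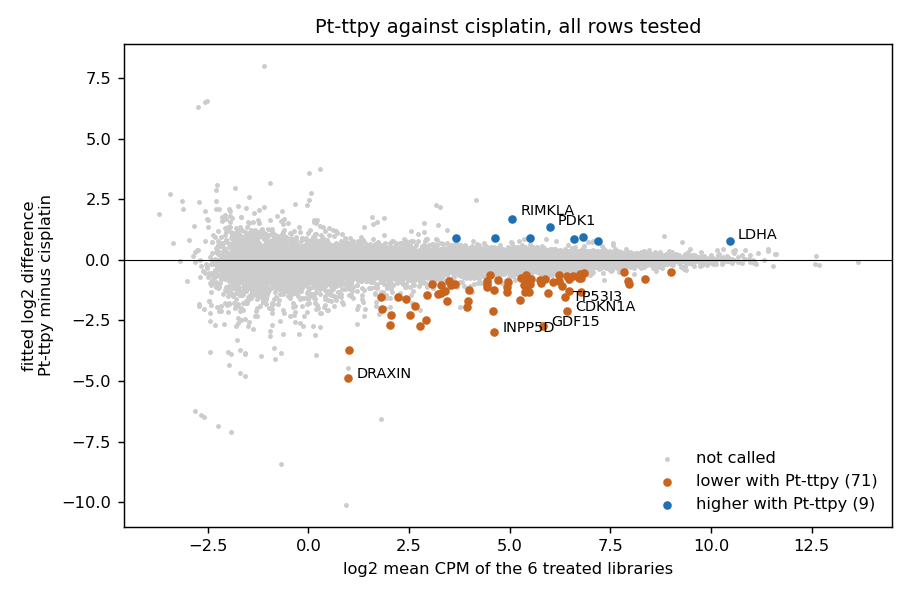
Fitted log2 difference, Pt-ttpy minus cisplatin, of each row tested (vertical axis) against its mean log2 level in CPM (horizontal axis). Coloured points are the 71 rows called lower and the 9 called higher, and the lower rows reach larger differences than the higher ones.

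Cisplatin 2, together with DMSO 2, stood apart from the other libraries before any test. Deviations of genes from their mean over all libraries followed transcript GC content with a Spearman rho of 0.51 in DMSO 2 and 0.41 in cisplatin 2, against −0.34 to −0.16 in the other 7. Cisplatin 2 also had the lowest share of counts from the mitochondrial genome (0.756%). A fit without both libraries, which leaves 2 cisplatin libraries, called 442 rows lower (2.83%) and 371 higher (2.37%). The main results below are given with their count in that fit of 7 libraries. With 1 library left out of all 9, the calls numbered 18, 21 and 18 without Pt-ttpy 1, 2 and 3, 36 without cisplatin 1 and 155 without DMSO 2, and between 54 and 74 without any of the others. Correcting all libraries for GC content gave 174 lower (1.30%) and 60 higher (0.448%). Totals were 31.3 to 39.5 M counts for the cisplatin libraries and 32.4 to 35.1 M for Pt-ttpy, and a count of 0 in a library allows up to 0.0735 to 0.096 CPM, by counting error alone.

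The p53 targets of arrest and damage response held more called genes than any other list. List members were chosen with earlier results of these data known, so this ranking is a description only. Of 34 such targets tested, 20 were called lower with Pt-ttpy, against 0.456% of all rows, and 0 were called higher. A negative difference was found in 33, with a median of log2 −0.87 (all rows 0.00). In bulk RNA a lower level can reflect fewer expressing cells or less RNA per cell, and these cannot be told apart. In the fit of 7 libraries 31 of the 34 were called lower, against 2.83% of all rows. After correction for GC content 29 were, against 1.30% of all rows, and with any 1 library left out 8 to 23. Against DMSO the same genes had a median of log2 0.42 with Pt-ttpy and 1.19 with cisplatin, in comparisons that share the DMSO libraries. Library by library, the median of the list lay 0.46, 0.48 and 0.39 above the DMSO mean in the Pt-ttpy libraries and 1.37, 1.24 and 1.22 above it in the cisplatin libraries (log2).

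CDKN1A (ENSG00000124762, chr6:36676460-36687339, plus strand, GRCh38, GENCODE 29), which encodes p21, the inhibitor of cyclin-dependent kinases that arrests the cycle, had the lowest adjusted p. Its levels in CPM (counts per M counts of the TMM-scaled library) in libraries 1, 2 and 3 were 29.9, 36.3 and 30.8 with Pt-ttpy, 142, 160.2 and 114 with cisplatin and 15.4, 16.9 and 14.5 with DMSO. All Pt-ttpy values lay below all cisplatin values and above all DMSO values (log2 −2.10, SE 0.14, adjusted p = 7.57e-05). Against DMSO, the fitted difference was log2 1.05 with Pt-ttpy and 3.15 with cisplatin. GDF15 (ENSG00000130513, chr19:18374731-18389176, plus strand), a secreted stress cytokine, stood at 15.1, 16.3 and 12.9 CPM with Pt-ttpy against 104, 116 and 76.7 with cisplatin and 6.89, 11.6 and 6.99 with DMSO (log2 −2.75, SE 0.22, adjusted p = 0.000254). The lowest cisplatin library was above every Pt-ttpy library for both genes. BTG2, which restrains proliferation, measured 32.5, 38.3 and 33.3 CPM with Pt-ttpy, 89.9, 96.5 and 80.9 with cisplatin and 21.2, 22.6 and 23.3 with DMSO (log2 −1.36, SE 0.11, adjusted p = 0.000298). Its groups were separate too, in the order DMSO, Pt-ttpy, cisplatin.

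Other arrest and repair targets showed the same order of the drugs. PHLDA3, which blocks AKT at the membrane, stood at 53.4, 54.6 and 47.3 CPM with Pt-ttpy and 119, 137 and 122 with cisplatin (log2 −1.28, SE 0.14, adjusted p = 0.00113). ZMAT3, an RNA-binding p53 target, stood at 49.1, 55.0 and 47.9 CPM with Pt-ttpy and 122, 97.9 and 101 with cisplatin (log2 −1.08, SE 0.13, adjusted p = 0.00277). The groups of both genes were separate, and the DMSO values (35.6, 49.3 and 37.2 for PHLDA3, 32.5, 26.6 and 33.6 for ZMAT3) lay below them except for PHLDA3 in DMSO 2, which lay within the Pt-ttpy values. MDM2, the ligase that targets p53 for destruction, had 174, 179 and 166 CPM with Pt-ttpy, 367, 258 and 329.9 with cisplatin and 152, 114 and 159.6 with DMSO (log2 −0.88, SE 0.15, adjusted p = 0.0241). Its Pt-ttpy values exceeded every DMSO value and stayed below every cisplatin value. DDB2, which recognises ultraviolet and bulky DNA lesions, had 59.4, 68.5 and 65.2 CPM with Pt-ttpy and 106, 125 and 105 with cisplatin (log2 −0.80, SE 0.13, adjusted p = 0.0241). It was the one gene called of 21 in nucleotide excision repair, and it is a p53 target as well. MDM2 and DDB2 lost their calls in fits without any 1 of the Pt-ttpy libraries or without cisplatin 1. MDM2 also lost its call without cisplatin 3, and DDB2 without cisplatin 2.

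Other called members ranged from mitochondrial to cell cycle proteins. SPATA18 (−1.34, adjusted p = 0.00506) promotes the removal of damaged mitochondrial proteins, FDXR (−1.34, adjusted p = 0.00349) is a reductase of the mitochondrial matrix, and DRAM1 (−0.98, adjusted p = 0.00262) acts in autophagy. SESN1 (−0.90, adjusted p = 0.0206) limits growth signalling through mTORC1, GADD45A (−0.99, adjusted p = 0.0171) is a damage-induced arrest factor, and SFN (−1.36, adjusted p = 0.0268) encodes 14-3-3 sigma. PLK3 (−1.0, adjusted p = 0.0459), a kinase of the stress response, had a fitted difference from DMSO of −0.41 with Pt-ttpy and 0.59 with cisplatin. Its difference between Pt-ttpy and DMSO was not called by edgeR (adjusted p = 0.177). TP53INP1 (−0.87) and AEN (−0.68), which act in cell death, RPS27L (−1.12) and CYFIP2 (−1.66) were also called. SPATA18 lost its call without Pt-ttpy 1 (adjusted p = 0.0582) and without Pt-ttpy 3 (0.0611). Without any 1 Pt-ttpy library the calls of SESN1, GADD45A, SFN, PLK3, TP53INP1, AEN and RPS27L were lost, while FDXR, DRAM1 and CYFIP2 kept theirs. PLK3 and AEN also lost their calls without any 1 cisplatin library and without DMSO 3. SESN1, GADD45A, SFN, TP53INP1 and RPS27L also lost theirs without cisplatin 1. SFN and TP53INP1 further lost theirs without cisplatin 2, and SESN1 without cisplatin 3. XPC, a damage sensor, missed the threshold (log2 −0.62, adjusted p = 0.0695).

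**Figure D2:**
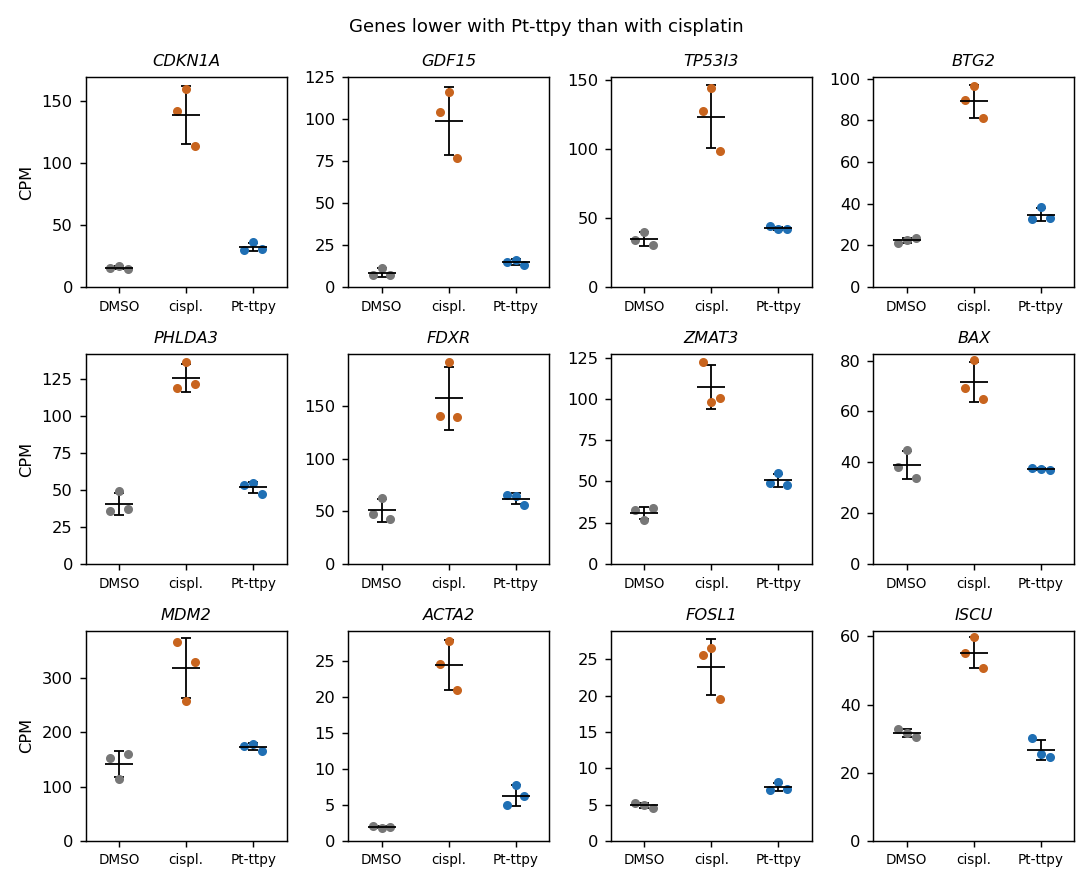
Levels of 12 genes lower with Pt-ttpy, in CPM on linear axes from 0, with 1 point for each of the 9 libraries, the mean of each group as a long line and its SD (n = 3) as the error bar. In each gene the 3 cisplatin points lie above the 3 Pt-ttpy points, and the distance of the Pt-ttpy points from the DMSO points differs from gene to gene.

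Among p53 targets of cell death, 3 of 14 tested were called lower with Pt-ttpy and 0 higher, with a median of log2 −0.55 and 13 negative values. The fit of 7 libraries called 6 lower, against 2.83% of all rows. BAX (ENSG00000087088, chr19:48954815-48961798, plus strand), which permeabilises the outer mitochondrial membrane, stood at 37.6, 37.3 and 37.0 CPM with Pt-ttpy, 69.4, 80.2 and 65.0 with cisplatin and 38.0, 45.0 and 33.9 with DMSO (log2 −0.94, SE 0.13, adjusted p = 0.00707). The Pt-ttpy values lay inside the range of the DMSO values, with a fitted difference of log2 −0.06 from DMSO against 0.88 with cisplatin. The BAX call was lost without Pt-ttpy 1, 2 or 3 (adjusted p = 0.0607, 0.0592 and 0.0791). TP53I3, an oxidoreductase linked to oxidative death, stood at 44.0, 42.0 and 41.7 CPM with Pt-ttpy, 127, 144 and 98.7 with cisplatin and 33.8, 40.0 and 30.6 with DMSO (log2 −1.54, SE 0.15, adjusted p = 0.000605). TNFRSF10B, a death receptor for TRAIL, had the smallest called difference of all called genes (log2 −0.50, adjusted p = 0.0409). It too lost its call without any 1 Pt-ttpy library, and also without any 1 cisplatin library and without DMSO 1 or DMSO 3. BBC3, which encodes PUMA, and the death receptor gene FAS missed the threshold (log2 −0.90, 95% interval −1.30 to −0.50, adjusted p = 0.0616, and log2 −1.12, interval −1.73 to −0.50, adjusted p = 0.15). Of the BCL2 family genes outside the p53 targets, 13 were tested, and none was called by edgeR in either direction. In that list 0 had an unadjusted p under 0.05 and DESeq2 called 0.

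Of the 69 genes lower with Pt-ttpy, 23 were in a p53 list and 41 in no list. The lists are a selection, so a gene outside the p53 lists may still be a p53 target, which was not tested. Among the 15 largest falls of genes with at least 5 CPM were, in order, INPP5D, GDF15, PLXNB3, RINL, GRIP2, CYGB, CDKN1A, ACTA2, SCN4B, TAGLN, FOSL1, CYFIP2, GRHL3 and PLEKHG1. INPP5D (ENSG00000168918, chr2:233059967-233207903, plus strand), a lipid phosphatase that opposes PI3 kinase, stood at 4.95, 5.92 and 5.60 CPM with Pt-ttpy, 39.5, 62.8 and 28.7 with cisplatin and 0.76, 1.12 and 1.50 with DMSO (log2 −2.99, SE 0.28, adjusted p = 0.000605). The cisplatin libraries themselves spread over a range of 28.7 to 62.8 CPM, and the highest Pt-ttpy value was 5.92. The differences of PLXNB3 (−2.68), a semaphorin receptor, RINL (−2.47), GRIP2 (−2.28), a scaffold of glutamate receptors, and CYGB (−2.28), a globin, rest on Pt-ttpy levels of 0.889 to 3.10 CPM, and each call was lost without any 1 Pt-ttpy library. The calls of PLXNB3, RINL and GRIP2 were also lost without cisplatin 1 or cisplatin 2. DRAXIN (−4.88) and EBI3 (−3.70) had larger differences but means under 5 CPM with both drugs. GRHL3 (−1.61) and PLEKHG1 (−1.54) lost their calls without any 1 of several libraries, including each Pt-ttpy and each cisplatin library.

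In the list of YAP targets and contractile genes, 3 of 21 were called lower (median −0.33), against 0.456% of all rows. The count was 12 in the fit of 7 libraries, against 2.83% of all rows, and 4 with the GC correction, against 1.30%. It was 1 to 4 with any 1 library left out. ACTA2, smooth muscle actin, stood at 4.95, 7.75 and 6.19 CPM with Pt-ttpy, 24.6, 27.8 and 20.9 with cisplatin and 2.11, 1.78 and 1.97 with DMSO (log2 −1.96, SE 0.19, adjusted p = 0.000637). Its values with Pt-ttpy lay between those with DMSO and those with cisplatin, with no overlap. TAGLN, which bundles actin, had 5.38, 5.07 and 4.86 CPM with Pt-ttpy and 21.3, 12.8 and 15.7 with cisplatin (log2 −1.70, SE 0.24, adjusted p = 0.00973), with DMSO at 5.29, 8.99 and 5.62. FOSL1, an AP-1 subunit and the one gene called of 22 in that list, had 7.05, 8.09 and 7.11 CPM with Pt-ttpy, 25.6, 26.6 and 19.5 with cisplatin and 5.18, 4.90 and 4.54 with DMSO (log2 −1.69, SE 0.16, adjusted p = 0.000605). LIF, a cytokine (log2 −1.06, SE 0.20, adjusted p = 0.0409), was the one gene called of 11 NF-kB targets. TAGLN and LIF lost their calls without any 1 Pt-ttpy library, and ACTA2 and FOSL1 kept theirs. LIF also lost its call without any 1 cisplatin library and without DMSO 1 or DMSO 3.

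Fibroblast markers had a summed level of 2079 to 2154 CPM with Pt-ttpy and 2083 to 2265 with cisplatin, and 10 of 11 were tested. Of 17 ovarian and epithelial markers, 7 were tested, and WT1, KRT7, KRT18 and SOX17 had no count in the 6 treated libraries. MUC1 (83 to 274 counts) and CLDN4 (69 to 298) had the highest counts of the 17. The summed level of the 7 tested markers was 6.2 to 9.4 CPM with Pt-ttpy and 10.3 to 17 with cisplatin. VIM, the mesenchymal filament, averaged 6084 CPM with Pt-ttpy and 7046 with cisplatin. The summed level of the 8 tested mesenchymal markers, VIM among them, was 6252, 6773 and 6552 CPM with Pt-ttpy. With cisplatin it was 6385, 9372 and 6612, so cisplatin 2 stood apart and cisplatin 1 and 3 lay within the Pt-ttpy range. Few of the defining epithelial genes were thus detected under the label of ovarian carcinoma, and the part of these levels in the results was not tested. Of 12 leukocyte markers, PTPRC, CD3E, CD3D and MS4A1 were at 0 in all 6 treated libraries, and 5 were tested. CD68 (101 to 217 counts), CD4 (84 to 203) and CD8A (22 to 97) were counted in all 6.

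A further 6 called genes were chosen after their values were seen. ISCU, the scaffold on which iron-sulfur clusters are built, stood at 30.1, 25.6 and 24.5 CPM with Pt-ttpy, 55.1, 59.8 and 50.8 with cisplatin and 32.8, 31.7 and 30.6 with DMSO (log2 −1.05, SE 0.12, adjusted p = 0.00229). The Pt-ttpy values lay under both other groups, but the fitted difference from DMSO (log2 −0.24) was not called by edgeR (adjusted p = 0.192). COQ8A, which acts in coenzyme Q synthesis, had a difference of log2 −0.84 (adjusted p = 0.011), and FAM210B, a protein of mitochondria, −1.10 (adjusted p = 0.00349). NOTCH1 (−0.90, adjusted p = 0.00773), a cell fate receptor, and APOE (−1.0, adjusted p = 0.0402), a lipid carrier, were called as well. DOCK8, which activates the GTPase CDC42, stood at 25.6, 30.5 and 30.9 CPM with Pt-ttpy, 52.2, 41.6 and 51.6 with cisplatin and 45.7, 52.7 and 44.6 with DMSO (log2 −0.74, SE 0.13, adjusted p = 0.0301). Here the cisplatin and DMSO values overlapped and the Pt-ttpy values lay below both. ISCU and FAM210B kept their calls whichever library was left out, and COQ8A, NOTCH1, APOE and DOCK8 lost theirs without any 1 Pt-ttpy library. COQ8A, APOE and DOCK8 also lost theirs without cisplatin 1. APOE further lost its call without DMSO 1 or DMSO 3, and DOCK8 without cisplatin 3 or DMSO 3.

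In 55 of the 69 lower genes the DMSO mean lay below both drugs, in 14 between them and in 0 above both. Over all 13383 Ensembl genes tested the counts were 5313 below, 2377 between and 5693 above. The median difference of the 69 genes was log2 −1.10 between the drugs, 0.53 for Pt-ttpy against DMSO and 1.69 for cisplatin against DMSO. These comparisons share libraries, and the first value was used to choose the genes.

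**Figure D3:**
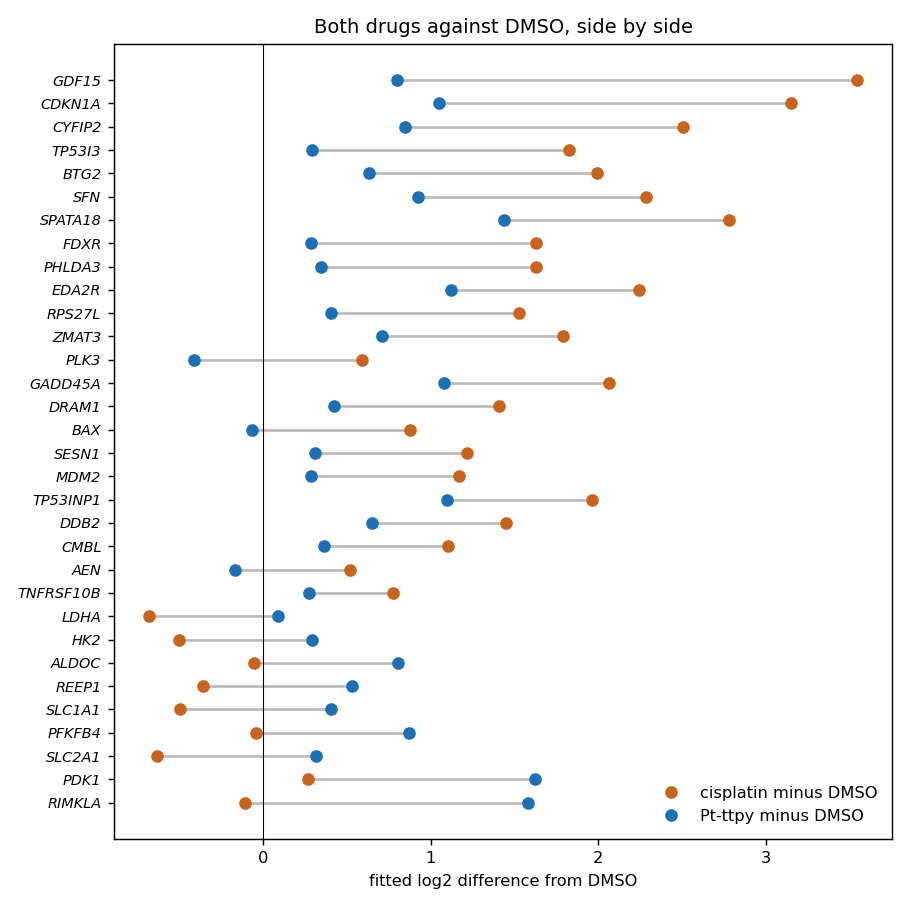
Fitted log2 difference from DMSO (horizontal axis) with Pt-ttpy and with cisplatin, joined by a line, for the 23 called genes of the p53 lists and the 9 genes called higher with Pt-ttpy. In the p53 genes the cisplatin point is farther right, and the genes below them split between those where the Pt-ttpy point lies farther from 0, such as PDK1 and RIMKLA, and those where the cisplatin point does, such as LDHA.

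The 9 genes called higher with Pt-ttpy were, from the largest difference, RIMKLA, PDK1, SLC2A1, PFKFB4, SLC1A1, REEP1, ALDOC, HK2 and LDHA. Of these, 6 were in a list. In the list of hypoxia and HIF targets, 2 of 25 were called higher, 0 lower and 22 were positive, with a median of log2 0.61. In glycolysis with glucose and lactate transport, 4 of 20 were called higher, 0 lower and 19 were positive, with a median of 0.40. Over all rows, 0.0578% were called higher. The fit of 7 libraries called 9 hypoxia genes and 12 glycolysis genes higher, against 2.37% of all rows. PDK1 and PFKFB4, the hypoxia genes called in the main fit, were not among the 9. The medians in the fit of 7 libraries were smaller, 0.42 for the hypoxia list and 0.32 for the glycolysis list. With the GC correction the counts were 11 and 9, against 0.448% of all rows. With any 1 library left out the counts ran from 0 to 6 and from 0 to 5. Against DMSO the hypoxia list had a median of 0.68 with Pt-ttpy and 0.11 with cisplatin, and the glycolysis list −0.01 with Pt-ttpy and −0.46 with cisplatin.

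PDK1 (ENSG00000152256, chr2:172555373-172608669, plus strand), the kinase that shuts pyruvate dehydrogenase, stood at 85.5, 102 and 87.7 CPM with Pt-ttpy, 33.4, 25.3 and 48.8 with cisplatin and 30.8, 20.9 and 37.3 with DMSO (log2 1.36, SE 0.24, adjusted p = 0.0301). Cisplatin and DMSO values overlapped, and every Pt-ttpy value was higher. ALDOC, an aldolase, showed the same arrangement, with 114, 129.9 and 131 CPM for Pt-ttpy, 62.3, 61.2 and 83.9 for cisplatin and 68.1, 80.4 and 66.6 for DMSO (log2 0.86, SE 0.14, adjusted p = 0.0213). PFKFB4, which sets the level of a phosphofructokinase activator, had 56.2, 68.5 and 51.8 CPM with Pt-ttpy, 26.0, 29.4 and 38.4 with cisplatin and 31.4, 28.2 and 36.8 with DMSO (log2 0.91, SE 0.17, adjusted p = 0.0347). In RIMKLA, a synthetase of N-acetylaspartylglutamate, the values were 43.4, 59.6 and 50.1 CPM with Pt-ttpy, 12.3, 10.9 and 24.6 with cisplatin and 15.8, 11.8 and 23.6 with DMSO (log2 1.68, SE 0.31, adjusted p = 0.0419). In these 4 genes every Pt-ttpy value lay above the DMSO values and the cisplatin values overlapped them, with fitted differences from DMSO of 1.63, 0.80, 0.87 and 1.58 for Pt-ttpy and 0.27, −0.05, −0.04 and −0.10 for cisplatin.

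The other glycolytic calls were arranged differently. LDHA (ENSG00000134333, chr11:18394388-18408425, plus strand), which converts pyruvate to lactate, stood at 1613, 1954 and 1769.8 CPM with Pt-ttpy, 1099, 779 and 1259 with cisplatin and 1689.5, 1686 and 1644 with DMSO (log2 0.77, SE 0.15, adjusted p = 0.0476). Pt-ttpy and DMSO overlapped, and every cisplatin value was lower, with log2 0.09 from DMSO for Pt-ttpy and −0.68 for cisplatin. SLC2A1, the glucose transporter GLUT1, had 141, 169 and 140.0 CPM with Pt-ttpy, 78.6, 56.3 and 98.7 with cisplatin and 117, 121 and 123 with DMSO (log2 0.95, SE 0.17, adjusted p = 0.0301). HK2, which traps glucose by phosphorylation, had 168, 204 and 185 CPM with Pt-ttpy, 111, 82.2 and 128 with cisplatin and 143, 149.5 and 162 with DMSO (log2 0.79, SE 0.15, adjusted p = 0.0367). In SLC2A1 and HK2 the DMSO values lay between the drugs. The glutamate transporter gene SLC1A1 had 31.1, 35.1 and 31.3 CPM with Pt-ttpy, 14.6, 16.2 and 21.4 with cisplatin and 23.4, 23.5 and 26.7 with DMSO (log2 0.90, SE 0.15, adjusted p = 0.0241). REEP1, which shapes the endoplasmic reticulum, was at 15.3, 16 and 17.7 CPM with Pt-ttpy and 9.88, 7.65 and 8.89 with cisplatin (log2 0.89, SE 0.16, adjusted p = 0.0301). The DMSO values of SLC1A1 and REEP1 (12.6, 9.94 and 11.3 for REEP1) also lay between the drugs.

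**Figure D4:**
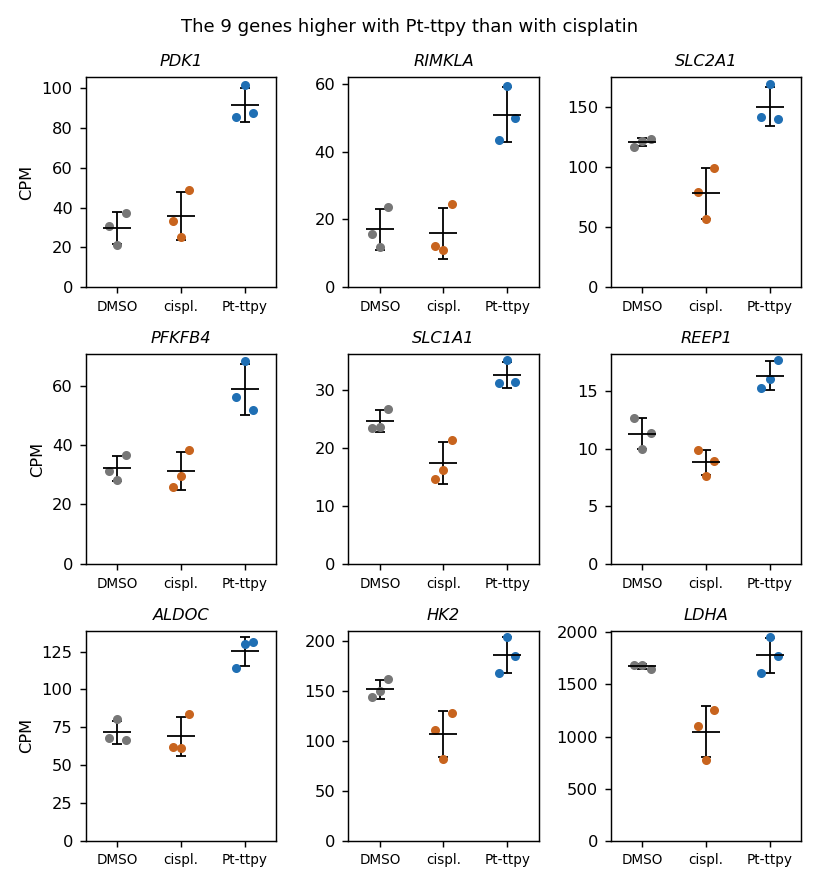
Levels of the 9 genes called higher with Pt-ttpy, in CPM on linear axes from 0, with 1 point per library and the mean and SD (n = 3) of DMSO, cisplatin and Pt-ttpy. The Pt-ttpy and cisplatin points do not overlap in any gene, and the DMSO points lie with cisplatin in some genes and with Pt-ttpy or between the drugs in others.

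None of the 9 higher calls held in every fit with 1 library left out. Each was lost without Pt-ttpy 1, 2 or 3 and without cisplatin 1, fits that leave 2 libraries in a group. Without cisplatin 1 or without Pt-ttpy 3 edgeR called 0 rows higher, with 412 and 276 higher at an unadjusted p under 0.05. Without the 2 libraries with the GC trend 6 of the 9 kept their call, and PFKFB4 (adjusted p = 0.118), PDK1 (0.0507) and RIMKLA (0.163) lost it. By contrast, 69 of 69 lower calls held in that fit, and 16 of the 69 in all 9 fits with 1 library left out. Those 16 were INPP5D, GDF15, CDKN1A, ACTA2, FOSL1, CYFIP2, TP53I3, BTG2, FDXR, ANK1, PHLDA3, FAM210B, ZMAT3, ISCU, DRAM1 and ENSG00000285188, a gene with no symbol. VEGFA, a HIF target for vessel growth, and BNIP3, a HIF target of mitophagy, missed the threshold (log2 0.34, adjusted p = 0.253, and log2 0.78, adjusted p = 0.0576). Exon positions are shared with a neighbouring gene in 16 of the 78 called genes, among them ACTA2 (with FAS), TP53I3, TAGLN, CYFIP2, MDM2, PLXNB3, GRIP2, CYGB, TNFRSF10B, DOCK8 and PFKFB4. The strandedness of the counting is not given in the sources used here, so the assignment of these counts to 1 of the overlapping genes is uncertain.

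Promoter sequences of both groups were searched for motifs that p53 and HIF-1 are known to bind. Sites outside the searched bases are not covered, and binding was not tested. RefSeq (GRCh38.p14) gave a promoter for 53 of the 69 lower genes, for all 9 higher genes and for 10700 of the genes tested, and the 250 bases before the most upstream start were searched on both strands. The p53 decamer, the unit that occurs in pairs in full p53 binding sites, was found in 6 of 53 lower genes (11.3%: ACTA2, AEN, APOE, FDXR, ISCU and RPS27L), in 0 of 9 higher genes and in 465 of all promoters (4.35%). The core of the hypoxia response element, ACGTG or GCGTG, was in 7 of 9 higher genes (77.8%), in 20 of 53 lower genes (37.7%) and in 6146 of all promoters (57.4%). The 7 were ALDOC, HK2, LDHA, PFKFB4, REEP1, RIMKLA and SLC1A1. PDK1 and SLC2A1 had no match in the searched bases, and REEP1, RIMKLA and SLC1A1 were in no list. These motifs were chosen after the values had been seen, and a match is a description, not a bound site. FDXR (chr17:74872995-74873244 on the minus strand) and ISCU (chr12:108562346-108562595 on the plus strand) are shown for the p53 decamer, and ALDOC (chr17:28576896-28577145 on the minus strand) and LDHA (chr11:18394313-18394562 on the plus strand) for the hypoxia core, read 5′ to 3′ along the gene with every match on either strand in capitals.
FDXR: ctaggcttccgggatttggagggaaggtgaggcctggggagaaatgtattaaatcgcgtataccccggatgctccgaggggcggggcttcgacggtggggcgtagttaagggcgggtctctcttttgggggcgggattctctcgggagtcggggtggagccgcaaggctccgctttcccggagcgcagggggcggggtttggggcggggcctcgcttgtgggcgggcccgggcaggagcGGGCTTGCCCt
ISCU: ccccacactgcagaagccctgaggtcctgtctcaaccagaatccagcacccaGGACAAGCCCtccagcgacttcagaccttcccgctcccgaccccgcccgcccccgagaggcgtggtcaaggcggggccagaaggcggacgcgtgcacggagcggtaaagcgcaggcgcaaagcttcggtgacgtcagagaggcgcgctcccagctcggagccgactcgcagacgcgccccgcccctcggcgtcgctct
ALDOC: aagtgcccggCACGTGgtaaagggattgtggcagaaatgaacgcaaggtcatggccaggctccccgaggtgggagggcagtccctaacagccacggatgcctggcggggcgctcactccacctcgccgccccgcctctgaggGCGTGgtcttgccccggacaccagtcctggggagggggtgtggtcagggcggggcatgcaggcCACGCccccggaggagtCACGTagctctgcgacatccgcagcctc
LDHA: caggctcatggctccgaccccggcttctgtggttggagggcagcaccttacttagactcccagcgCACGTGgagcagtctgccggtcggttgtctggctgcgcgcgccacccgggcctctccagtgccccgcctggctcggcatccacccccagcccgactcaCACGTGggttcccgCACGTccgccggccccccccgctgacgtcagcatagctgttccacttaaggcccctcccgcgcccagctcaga
The decamer of FDXR ends 2 bases before the start and that of ISCU 189 bases before it. ALDOC and LDHA each held 5 matches, some of which share bases on opposite strands. A G-quadruplex motif, 4 runs of at least 3 G with gaps of 1 to 7 bases, was in 21 of 53 lower genes (39.6%), in 3 of 9 higher genes (33.3%: HK2, PFKFB4 and SLC2A1) and in 3475 of all promoters (32.5%).

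The series title names mitochondria, and no gene of the mitochondrial lists was called in the main edgeR fit or by DESeq2. Of the 13 genes of the mitochondrial genome 0 were called (median log2 0.26, and −0.21 in the fit of 7 libraries). Their share of all counts was 4.18%, 1.95% and 2.07% in the Pt-ttpy libraries and 4.21%, 0.756% and 2.03% in the cisplatin libraries (2.73 ± 1.25% and 2.33 ± 1.75%, SD, n = 3). The groups overlapped (exact permutation test, two-sided, p = 0.8, where the smallest p of this design is 0.10). The test did not pair libraries by number. Those numbered 1 (4.18% and 4.21%) and 3 (2.07% and 2.03%) had like shares with both drugs, and those numbered 2 (1.95% and 0.756%) did not. The difference of 0.401 percentage points changed sign without Pt-ttpy 1 (−0.321) and without cisplatin 2 (−0.387). No gene was called among 37 complex I genes (median −0.02), 39 genes of complexes II to V (0.01), 33 factors of mitochondrial DNA (0.01) or 77 genes of the mitochondrial ribosome (−0.0028, with −0.35 for Pt-ttpy and −0.29 for cisplatin against DMSO). At an unadjusted p under 0.05 there were 3 genes of the mitochondrial ribosome and 0 in the other lists named here. The fit of 7 libraries called 5 genes of the mitochondrial ribosome lower, 3 factors of mitochondrial DNA lower and 1 higher, and 0 in the complex lists. With the GC correction 1 factor of mitochondrial DNA was called higher. The packaging factor TFAM had a difference of log2 0.02 (95% interval −0.45 to 0.49), the polymerase gene POLG 0.02 (−0.22 to 0.27), the RNA polymerase gene POLRMT −0.04 (−0.35 to 0.27) and the helicase gene TWNK −0.13 (−0.44 to 0.19). TFAM was among the factors called lower in the fit of 7 libraries (log2 −0.22, adjusted p = 0.0283).

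No member was called in the lists of G-quadruplex helicases (23 tested, median 0.07), genes with a known promoter G-quadruplex (16, median 0.03) or shelterin and telomerase (16) in the main edgeR fit or by DESeq2. In these lists 1, 4 and 0 had an unadjusted p under 0.05. The fit of 7 libraries called 1 gene higher and 2 lower in the list of promoter G-quadruplexes and 0 in the other lists. With the GC correction 1 gene of the promoter list was called higher. For MYC the difference was log2 0.01 (95% interval −0.35 to 0.38, adjusted p = 0.989) and for TERT −0.27 (−0.58 to 0.05, adjusted p = 0.695). Of genes of the G1 to S transition, 41 of 44 had a positive difference (median 0.17), and of G2 to M 39 of 40 (0.17), with 0 calls. Without cisplatin 2 alone these medians were 0.082 and 0.098. The fit of 7 libraries called 5 G1 to S genes and 1 G2 to M gene higher, and the GC correction 2 and 0. MKI67 had log2 0.25 (−0.04 to 0.54) and CCNB1 0.09 (−0.13 to 0.31). Of cytosolic ribosomal proteins 72 of 74 were negative (median −0.11, and −0.037 without cisplatin 2), with 0 calls. Of 29 genes of the Fanconi anaemia and homologous recombination pathways, 0 were called (median 0.22, and 0.14 without cisplatin 2). The fit of 7 libraries called 2 of them higher and 1 lower, and the GC correction 1 lower. In these 4 lists 7 G1 to S genes, 3 G2 to M genes, 1 ribosomal protein gene and 7 repair genes had an unadjusted p under 0.05, and DESeq2 called 0. Lists of this size with 0 calls are near the background of 0.514%.

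None of 8 ABC efflux pumps and none of 16 metallothionein, platinum and metal transport genes was called in the main edgeR fit or by DESeq2. An unadjusted p under 0.05 was found in 2 and 3. In the fit of 7 libraries 2 of the 16 were called higher and 1 lower, and with the GC correction 0 and 1. ABCB1, the multidrug efflux pump, had 2.06, 1.47 and 1.66 CPM with Pt-ttpy, 1.51, 0.782 and 1.25 with cisplatin and 6.64, 6.70 and 5.64 with DMSO (log2 0.56, 95% interval −0.07 to 1.18, adjusted p = 0.673). Both drugs stood below DMSO, by fitted values of −1.87 and −2.43. The copper transporter SLC31A1, through which cisplatin can enter, had log2 0.26 (0.05 to 0.47, adjusted p = 0.484) and the copper exporter ATP7A 0.26 (−0.16 to 0.67). TXNIP, which limits glucose uptake, had differences from DMSO of log2 1.97 with Pt-ttpy and 2.36 with cisplatin, and the drugs differed by −0.39 (−0.91 to 0.13, adjusted p = 0.737). ID1 (−0.52), ID2 (−0.21) and ID3 (−0.31), which hold back differentiation factors, were not called either.

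The integrated stress response, in which the factor ATF4 switches on amino acid synthesis and transport, had different counts with and without the libraries that follow GC content. None of its 23 genes was called by edgeR in the fit of all 9 libraries (median 0.16), with 8 at an unadjusted p under 0.05 and 2 higher and 2 lower by DESeq2. In the fit of 7 libraries 15 were called higher and 2 lower, against 2.37% and 2.83% of all rows. Without cisplatin 2 alone, 3 were called higher and 0 lower. The GC correction with all 9 libraries gave 2 higher and 1 lower (median 0.19). ASNS, asparagine synthetase, chosen after its values were seen, stood at 103, 90.2 and 106 CPM with Pt-ttpy, 50.1, 135 and 50.1 with cisplatin and 100.3, 119 and 99.6 with DMSO. Cisplatin 1 and 3 lay below every Pt-ttpy value, and cisplatin 2 above all of them. With all libraries the difference was log2 0.35 (adjusted p = 0.835), and without the pair 1.00 (adjusted p = 1.08e-07). The cystine transporter gene SLC7A11, also chosen after its values were seen, had 26.6, 23.6 and 26.3 CPM with Pt-ttpy and 11.4, 25.3 and 10.7 with cisplatin, again with cisplatin 2 apart.

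**Figure D5:**
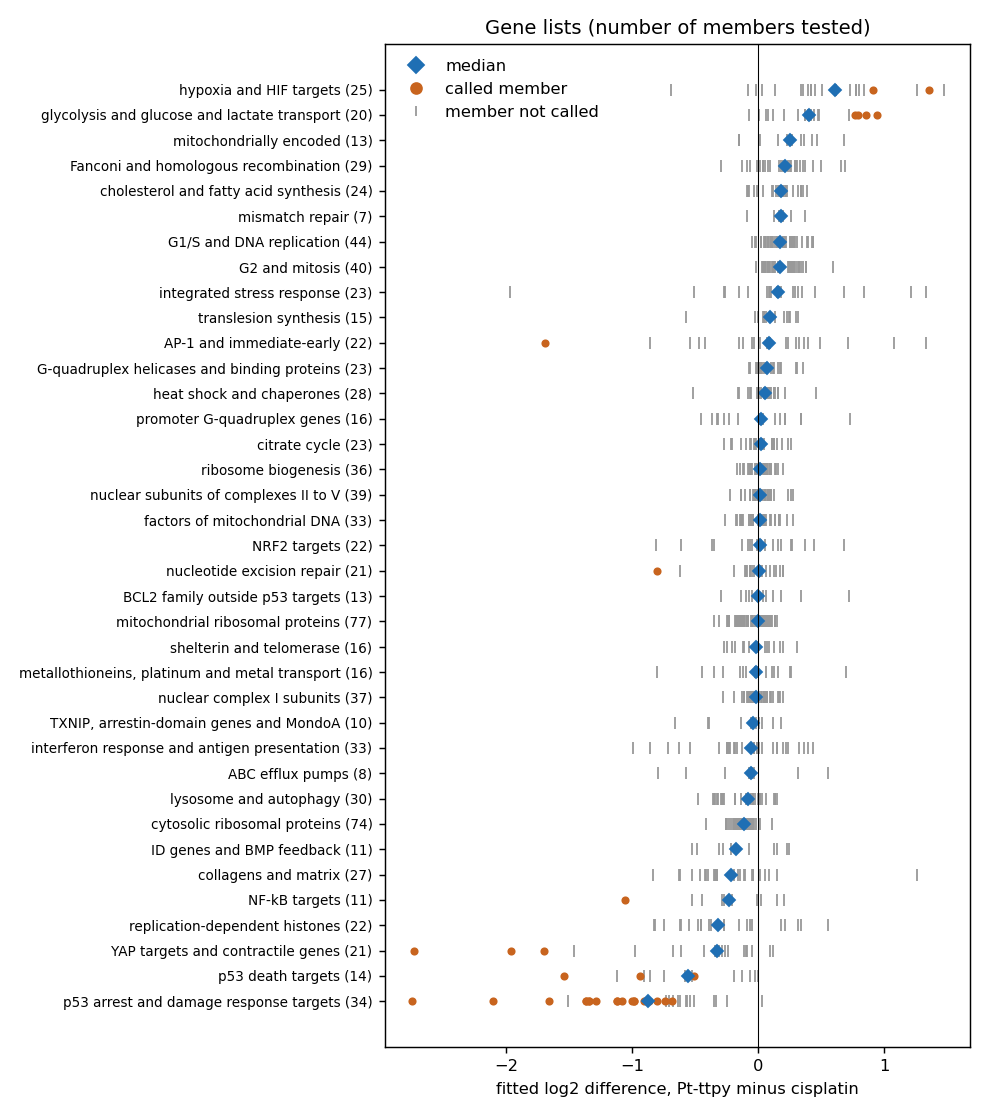
Fitted log2 difference, Pt-ttpy minus cisplatin (horizontal axis), of the tested members of 37 pathway lists, ordered by their median. Diamonds are medians, circles called members and ticks members not called, and the called members gather in the p53 lists on the left (20 of 34 and 3 of 14) and in hypoxia and glycolysis on the right (2 of 25 and 4 of 20).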

How the data were processed

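A2780 cells were treated for 96 h with DMSO, cisplatin or Pt-ttpy, 3 libraries each, grouped by their labels. All 9 libraries are columns of 1 table of gene counts that the authors deposited, and no column belongs to another sample. Per the submitters' processing notes the genome was GRCh38. The aligner, the counter and its strandedness are not stated in the labels or headers used here. Of 24542 rows, 19974 had Ensembl identifiers and 4568 were named newGene (1.56% to 2.18% of a library's counts). All Ensembl identifiers were found in GENCODE 29.

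Counts were fitted with edgeR 4.0.16 (R 4.3.3), with filterByExpr (minimum count 10), TMM factors and a robust quasi-likelihood F test over all 9 libraries with 1 mean per group. The contrast was Pt-ttpy minus cisplatin, adjusted by Benjamini-Hochberg over 15558 rows and called under 0.05. Fitted log2 values used a prior count of 0.125, intervals are at 95%, and CPM values carry the TMM factors. An exact permutation test was used for the mitochondrial share. The scripts were tested on simulated data.

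Genes named are the 15 largest rises and falls among called genes with a symbol, at least 5 CPM with either drug and groups that do not overlap, genes listed for the study's themes, and up to 4 called members per list. A gene that meets this rule is not reported here. The members and lists were chosen with earlier results of these data known. List medians and counts are descriptions, with no set test. H3C2, H3C3 and SOD2 matched no row. Alternatives were DESeq2 1.42.0, limma-voom (limma 3.58.1), other scaling factors, filters and thresholds, a replicate block, a GC correction (lowess span 0.3), a fit without DMSO 2 and cisplatin 2, and each library left out.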

Additional observations from a re-analysis of the deposited data

How the results depend on the processing

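Against 80 calls, 9 higher and 71 lower, 43 of them at least 2-fold, DESeq2 gave 253 (45 and 208, 111 at least 2-fold), the GC correction 234 (60 and 174), and the fit without DMSO 2 and cisplatin 2 gave 813 (371 and 442, 84 at least 2-fold). At an adjusted p under 0.01 there were 24 calls, 0 higher and 24 lower, 20 of at least 2-fold, and with no filter 14 were higher. With 1 library left out, calls ran from 18 to 155, higher from 0 to 33, lower from 17 to 122 and 2-fold calls from 15 to 53. The share of higher among the calls was 11.3%, 45.6% without DMSO 2 and cisplatin 2, and 10.1% to 13.8% under the other scaling factors. None of the 78 genes changed sign under any setting run.

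Same-numbered samples had correlations of deviations of 0.042, 0.0052 and −0.023 between cisplatin and Pt-ttpy, 0.0069, 0.041 and −0.039 between DMSO and Pt-ttpy, and 0.0996, 0.221 and 0.0821 between DMSO and cisplatin. Not every pair was above 0.1, so the numbers were not taken to pair the samples. Over both other groups together, every DMSO and cisplatin sample correlated best with its own number, and no Pt-ttpy sample did. Among the cisplatin samples alone, Pt-ttpy 1 correlated best with cisplatin 1. Among the DMSO samples alone, Pt-ttpy 2 correlated best with DMSO 2. With the replicate block there were 140 calls (24 higher, 116 lower), and with the block and the GC correction 246 (62, 184, 68 at least 2-fold). The 6 treated libraries alone gave 48 with the block (1, 47) and 160 with the GC correction (32, 128), both chosen after the data were seen.

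The difference in mitochondrial share, 0.401 percentage points, ran from −0.387 to 1.34 with 1 library left out and was −0.321 without Pt-ttpy 1. Without DMSO 2 and cisplatin 2, TFAM was −0.22, MYC −0.17 and POLRMT 0.018. Without cisplatin 2 alone they were −0.22, −0.17 and 0.019. With the GC correction TFAM was −0.098 and POLRMT 0.11, with the block and the GC correction −0.084 and 0.11, and with the 6 libraries and the GC correction −0.099 and 0.11. With library totals MYC was −0.0027 and POLG −0.0016, and without Pt-ttpy 1 −0.048 and −0.0041. POLRMT was 0.028 without Pt-ttpy 2. With 1 library left out the highest values were 0.19 for MYC, 0.17 for TFAM and 0.073 for POLG, and the lowest for POLRMT was −0.075. The causes were not tested.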

Other observations

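Further single genes were lower with Pt-ttpy than with cisplatin by edgeR's test. CSF1, the growth factor of macrophages, stood at 4.58, 7.84 and 5.84 CPM with Pt-ttpy, 15.2, 16.1 and 13.4 with cisplatin and 3.09, 4.58 and 3.09 with DMSO (log2 −1.29, SE 0.23, adjusted p = 0.0301). PLXNB2, a semaphorin receptor, stood at 239, 249 and 244 CPM with Pt-ttpy and 376, 509 and 366 with cisplatin (log2 −0.77, SE 0.14, adjusted p = 0.0308). TYRP1, an enzyme of melanin synthesis, had 32.3, 35.9 and 32.1 CPM with Pt-ttpy, 61.9, 49.0 and 63.6 with cisplatin and 12.8, 10.7 and 11.1 with DMSO (log2 −0.80, SE 0.13, adjusted p = 0.0241), so that both drugs lay above every DMSO value. CYP26A1, which degrades retinoic acid, showed the same order (log2 −1.02, SE 0.18, adjusted p = 0.0272). These 4 genes were chosen after their values were seen, and each lost its call without any 1 Pt-ttpy library. CSF1 also lost its call without any 1 cisplatin library and without DMSO 3. PLXNB2 also lost its call without cisplatin 1, cisplatin 2 or DMSO 3. TYRP1 and CYP26A1 also lost theirs without cisplatin 1 or cisplatin 3.

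Of 22 replication-dependent histone genes 0 were called (median log2 −0.32, 6 at an unadjusted p under 0.05, 0 by DESeq2). Their median was −0.34 without cisplatin 2, and the fit without DMSO 2 and cisplatin 2 called 2 lower. Of 27 collagen and matrix genes 0 were called (median −0.21, 5 at an unadjusted p under 0.05, 1 by DESeq2), and the median was −0.019 without cisplatin 2. Of 30 lysosome and autophagy genes 0 were called in the main edgeR fit (median −0.08, 9 at an unadjusted p under 0.05, 1 by DESeq2). The GC correction called 1 lower. Without DMSO 2 and cisplatin 2, 7 were called lower, against 2.83% of all rows in that fit.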
